A study of Mus musculus with 8 samples.

Results

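The 10 genes Hk1, Pfkl, Pfkm, Aldoc, Eno3, Ldhb, Pgm1, Pck2, Adh1, and Adh7 were followed in splenic mouse T cells with and without SDHA, a subunit of mitochondrial complex II. They are 10 of the 20170 genes in the deposited count table. They were chosen by name as isozymes of glycolysis beside the main ones and as related enzymes, with earlier results of these data known, and no threshold on a measured value was given. Their levels and differences are therefore a description of these 8 libraries and not independent evidence about the set. All 10 genes were found under their symbols.

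Single-cell RNA libraries were made from magnetically isolated splenic T cells of C57BL/6-background mice aged 8 to 12 weeks, in 4 groups of 2 libraries. SDHA-KO mice carried Sdha fl/fl with CD4-Cre. The labels call the other genotype WT, and whether the WT mice of these libraries carried the floxed alleles is not given in the sources used here. CD4-Cre is driven by regulatory sequence of the Cd4 gene and acts at the stage when thymocytes express CD4 and CD8, a stage that gamma-delta T cells do not pass through. Cells were cultured alone (unstimulated) or for 48 hours with 5 µg/mL anti-CD3 and 2.5 µg/mL anti-CD28 soluble antibodies (stimulated), and dead cells were removed before the libraries were made. The labels do not say whether the 2 libraries of a group came from separate mice, so the p-values measure only the spread between these libraries, which may be technical.

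The authors annotated each of 12846 cells as CD4 or CD8 and as a subset, and the counts of unique molecules (UMIs) were summed per library and class. CD4 sums came from 859 to 1315 cells and held 6776027 to 34087903 UMIs, and CD8 sums came from 325 to 844 cells and held 3640136 to 22311319 UMIs. Sdha, the deleted gene, was at 100 and 101 CPM (UMIs per 1000000 of the TMM-scaled sum) in unstimulated WT CD4 cells and at 49.8 and 49.4 CPM in unstimulated SDHA-KO CD4 cells, and at 26.5 and 26.4 CPM after stimulation. In stimulated CD8 cells it was at 76.2 and 74.9 CPM in WT libraries and 53.3 and 50.4 CPM in SDHA-KO libraries. The sources used here do not say which exons were removed, and a 3′ tag outside them does not show the deletion. The SDHA-KO libraries stood apart in their cell markers, most in the CD8 class after stimulation, where 56.1% and 59.1% of cells had a UMI of Trdc, the gamma-delta receptor constant gene, against 3.67% and 4.92% in WT. Trdc was also found in 15.2% and 19.7% of unstimulated SDHA-KO CD8 cells against 3.41% and 3.9% in WT, in 8.64% and 10.1% of stimulated SDHA-KO CD4 cells against 1.98% and 3.21%, and in 7.08% and 7.6% of unstimulated SDHA-KO CD4 cells against 2.84% and 3.64%. In stimulated CD4 cells the gamma-delta markers measured (6 of 8) summed to 16.2 to 21.4 CPM in SDHA-KO against 5.42 to 6.22 CPM, and 4 NK cell markers to 11.3 to 12.5 CPM against 3.71 to 5.46 CPM. Cd4 itself was at 549.6 to 631 CPM in unstimulated SDHA-KO CD4 cells against 155 CPM in WT. In stimulated SDHA-KO CD8 cells the Cd8a and Cd8b1 sum was 211 to 273 CPM against 464 to 499 CPM in WT, and 6 B cell markers summed to 64.1 to 345 CPM against 50.0 to 53.7 CPM. The median share of mitochondrial UMIs per cell was 14.9% to 19.0% in stimulated WT sums and 1.77% to 3.43% in stimulated SDHA-KO sums. The parts that these differences play in the results were not tested beyond the restricted sets of cells given beside them. A barcode was shared by 2 libraries in 23 cases, or 46 cells. In sums over a class, fewer cells expressing a gene and less RNA per cell cannot be told apart.

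Glycolysis splits glucose into pyruvate in the cytosol, and most of its steps can be carried out by several isozymes encoded by different genes. Hexokinases trap glucose as glucose-6-phosphate, phosphofructokinases commit it to glycolysis, aldolases cleave fructose-1,6-bisphosphate, enolases make phosphoenolpyruvate, and lactate dehydrogenases interconvert pyruvate and lactate. T cells activated through their receptor are known to raise glycolysis and lactate output, while complex II links the tricarboxylic acid cycle to the respiratory chain. Phosphoglucomutase connects glucose-6-phosphate with glycogen and sugar nucleotides, the mitochondrial phosphoenolpyruvate carboxykinase Pck2 makes phosphoenolpyruvate from oxaloacetate, and alcohol dehydrogenases oxidize alcohols such as ethanol and retinol.

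The 10 genes lie on 7 chromosomes in GRCm38 (GENCODE M21 annotation). Hk1 is at chr10:62268855-62379908 and Pfkl at chr10:77986947-78010083, both on the minus strand. Pfkm is at chr15:98092589-98132451, Aldoc at chr11:78322968-78327781, Eno3 at chr11:70657202-70662513, Pgm1 at chr4:99929414-99987294, and Pck2 at chr14:55540266-55551242, all on the plus strand. Ldhb is at chr6:142490249-142507957 on the minus strand. Adh7, at chr3:138217760-138233382, and Adh1, at chr3:138260991-138290698, are neighbours on the plus strand, 27.6 kb apart. Pfkm overlaps Gm26513 on the same strand, and reads in that overlap could belong to either. In older mouse annotations the symbols Pgm1 and Pgm2 were exchanged. Of the 20170 symbols of the table, 19788 are in GENCODE M21, which places Pgm1 on chromosome 4, and Pgm1 is read here as that gene.

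The sequences before the start sites of 5 genes are shown, picked after their values had been seen, to set 3 genes that were lower in stimulated SDHA-KO cells of both classes (Aldoc, Pgm1, and Pck2) beside the 2 that were higher (Ldhb and Eno3). Hk1, Pfkl, and Pfkm, which were also lower in both classes, are not shown. Each is the 250 bases before a RefSeq transcript start in GRCm38.p6, 5′ to 3′ on the gene's strand. Capitals mark ACGTG or GCGTG, the core letters of the element bound by hypoxia-inducible factors, on either strand (CACGT or CACGC when read on the other one). Aldoc is chr11:78322823-78323072 on the plus strand, Pgm1 is chr4:99929201-99929450 on the plus strand, and Pck2 is chr14:55540016-55540265 on the plus strand. Ldhb is chr6:142507958-142508207 on the minus strand, and Eno3 is chr11:70656926-70657175 on the plus strand.
Aldoc: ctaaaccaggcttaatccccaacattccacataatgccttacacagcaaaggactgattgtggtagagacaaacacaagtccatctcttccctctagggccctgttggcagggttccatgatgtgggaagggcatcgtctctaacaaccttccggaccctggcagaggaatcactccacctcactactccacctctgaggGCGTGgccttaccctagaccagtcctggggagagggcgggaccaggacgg
Pgm1: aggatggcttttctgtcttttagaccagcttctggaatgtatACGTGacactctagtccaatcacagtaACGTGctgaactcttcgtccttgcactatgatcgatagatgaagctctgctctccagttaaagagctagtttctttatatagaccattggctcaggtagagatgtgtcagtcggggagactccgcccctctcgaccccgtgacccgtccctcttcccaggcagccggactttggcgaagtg
Pck2: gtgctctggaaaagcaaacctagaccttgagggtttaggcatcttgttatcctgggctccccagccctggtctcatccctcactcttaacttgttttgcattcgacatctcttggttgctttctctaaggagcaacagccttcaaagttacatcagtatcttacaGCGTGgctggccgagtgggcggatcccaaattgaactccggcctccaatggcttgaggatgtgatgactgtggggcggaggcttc
Ldhb: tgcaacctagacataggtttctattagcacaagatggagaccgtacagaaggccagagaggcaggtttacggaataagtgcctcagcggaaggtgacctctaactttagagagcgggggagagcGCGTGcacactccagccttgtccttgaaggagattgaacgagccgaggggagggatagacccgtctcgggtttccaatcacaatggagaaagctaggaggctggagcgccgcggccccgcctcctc
Eno3: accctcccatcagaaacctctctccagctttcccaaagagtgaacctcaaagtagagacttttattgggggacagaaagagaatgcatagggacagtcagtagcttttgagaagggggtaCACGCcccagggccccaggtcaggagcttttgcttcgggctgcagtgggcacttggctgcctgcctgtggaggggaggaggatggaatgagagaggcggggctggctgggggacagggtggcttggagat

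Both the genes that were lower and those that were higher held such a match in these windows. Over the full windows of 300 bases, from 250 before to 50 after the start, RefSeq gave 15 start sites for the 10 genes. ACGTG occurred in 6 of the 15 windows and at 5 of the 10 genes, against 19.6% of 32851 mouse promoter windows. GCGTG occurred in 10 of the 15 windows and at 8 of the 10 genes, against 32.4% of all windows. The background is per window, and a gene with several windows has more room for a match, so the counts per gene have no matched background. Pfkm windows at chr15:98108221-98108520 and chr15:98108306-98108605 overlap and hold the same GCGTG match, which is counted in both. No excess over the background was tested. CACGTG, which contains ACGTG on both strands, was in 1 window each of Pfkm and Adh1, against 7.15% of all windows. In Aldoc the window held GCGTG or ACGTG 50 bases before the start and 11 and 27 bases after it, and in Pgm1 the 2 ACGTG matches began 208 and 181 bases before it. A match describes letters, not a bound site.

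Hk1 was the most abundant of the 10 genes, with a mean of 51.4 CPM over the 16 library-by-class sums, followed by Pfkl at 42.3 CPM and Pgm1 at 33.4 CPM. Eno3 averaged 27.9 CPM, Ldhb 27.0 CPM, Pck2 11.3 CPM, Aldoc 6.32 CPM, Pfkm 4.62 CPM, Adh1 1.38 CPM, and Adh7 0.147 CPM. Each gene's range over the 16 sums overlapped those of its neighbours in this order: Hk1 ran from 34.3 to 96.2 CPM and Eno3 from 4.195 to 76.4 CPM. A 3′ library counts about 1 tag per molecule, so a CPM here stands for the gene's share of molecules with no correction for length. Among CD4 sums 9 of the 10 genes passed the filter on low counts through all 4 groups, and Adh7 passed through stimulated SDHA-KO alone and so had to differ. Among CD8 sums 8 of the 10 genes were tested, Aldoc passed through stimulated WT alone and so had to differ, and Adh1 and Adh7, with 10 UMIs each over all 8 libraries, were not tested. The plot of levels by library shows all 10 genes.

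**Figure D1:**
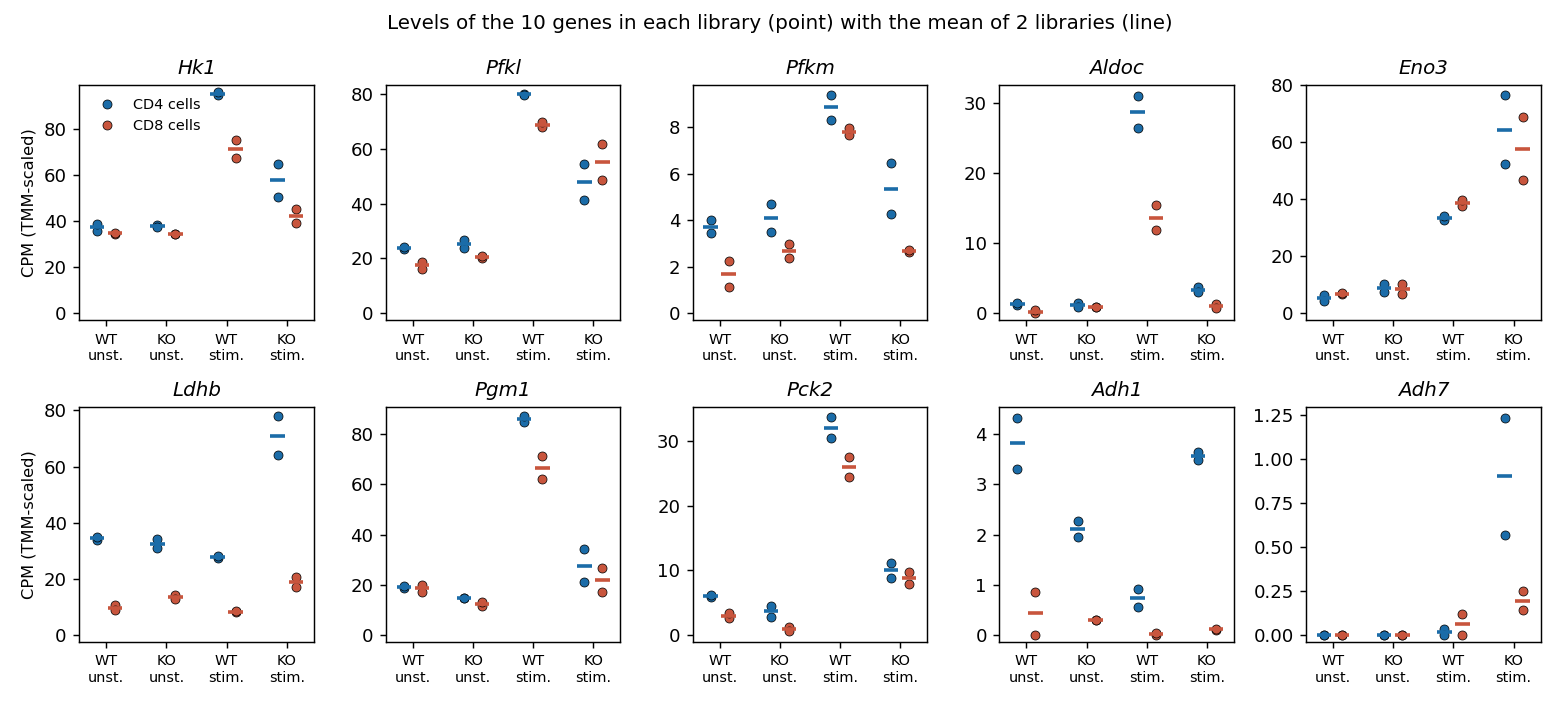
Level of each of the 10 genes (y axis: CPM of the TMM-scaled sum) in unstimulated and stimulated WT and SDHA-KO libraries (x axis), in CD4 and CD8 cells; points are libraries and lines the means of 2. In stimulated CD4 cells Aldoc sat at 26.5 and 31.1 CPM in WT libraries and at 3.74 and 3.03 CPM in SDHA-KO, whereas Ldhb sat at 27.4 and 28.0 CPM in WT libraries and at 64.1 and 77.9 CPM in SDHA-KO.

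After stimulation the SDHA-KO cells differed from WT cells in both directions among these genes. In CD4 cells Hk1, Pfkl, Pfkm, Aldoc, Pgm1, and Pck2 were lower and Eno3, Ldhb, and Adh1 were higher, so that 9 of the 9 genes other than Adh7 passed an adjusted p of 0.05 in edgeR's quasi-likelihood test, where 43.2% of 14264 genes tested did (20.5% lower and 22.7% higher). In CD8 cells Hk1, Pfkl, Pfkm, Pgm1, and Pck2 were lower and Eno3 and Ldhb were higher, 7 of the 7 tested other than Aldoc, where 50.4% of 13095 genes did (23.5% lower and 26.8% higher). Adh7 in CD4 cells (higher) and Aldoc in CD8 cells (lower) also passed, but the filter had fixed those calls, and neither is counted here. The median log2 fold change was -0.73 over the 9 genes in CD4 cells and -0.75 over the 7 in CD8 cells, beside medians of -0.00 and -0.01 over all genes tested. With DESeq2 the calls of Pfkm in CD4 cells and of Pfkl in CD8 cells were lost and the others passed. With 2 libraries against 2, an exact permutation test over libraries cannot go below p = 0.3333, so the statements rest on the fit across all genes.

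**Figure D2:**
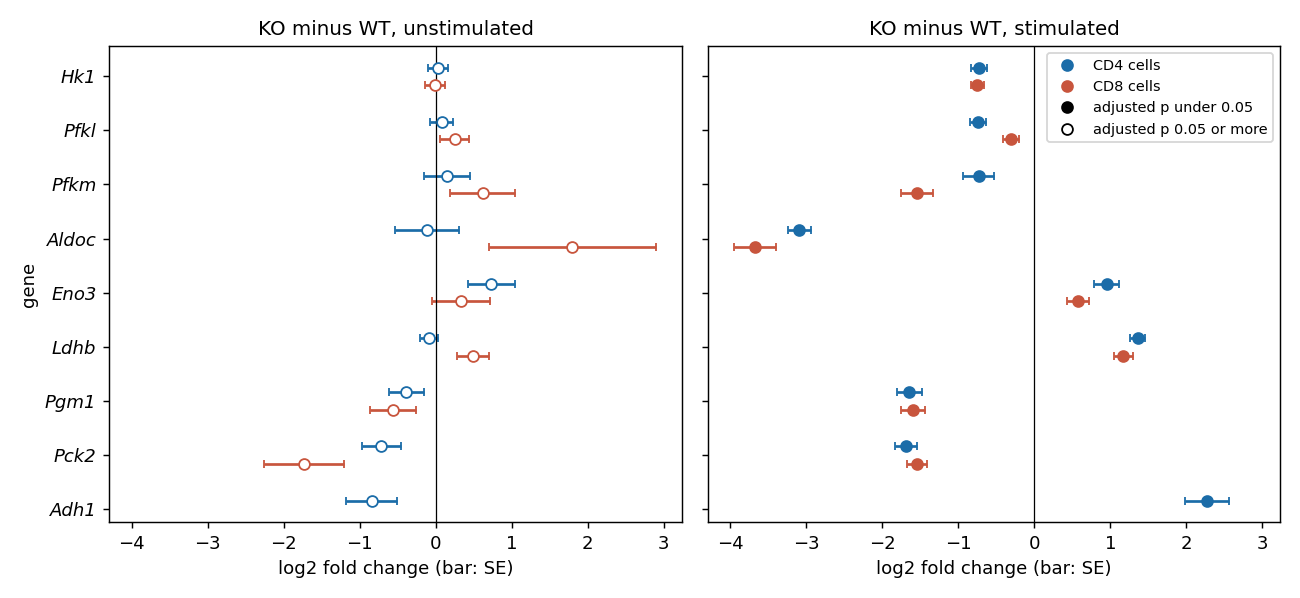
Log2 fold change of SDHA-KO over WT (x axis, bars show the SE) for each gene (y axis) in unstimulated (left) and stimulated (right) cells, CD4 in blue and CD8 in red, filled where the adjusted p was under 0.05; Adh7 is left out because its WT groups held 0 or 1 UMI in CD4 cells, and Adh1 was not tested in CD8 cells. In stimulated cells Aldoc lay farthest to the left, at -3.09 in CD4 and -3.68 in CD8 cells, and no unstimulated point is filled. The filter had fixed the CD8 Aldoc call.

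In WT cells stimulation raised most of these genes. In CD4 cells 7 of the 9 genes that passed the filter through all groups rose and Ldhb and Adh1 fell, where 66.3% of all genes tested changed (36.2% rose and 30.1% fell). In CD8 cells 6 of the 7 tested genes other than Aldoc rose, where 65.7% of all genes changed (35.5% rose and 30.3% fell), and Ldhb at -0.21 (SE 0.184) did not pass. In SDHA-KO CD4 cells 8 of the same 9 genes rose, where 69.8% of all genes changed (36.6% rose and 33.2% fell), and Pfkm at 0.37 (SE 0.242) did not pass. In SDHA-KO CD8 cells 6 of those 7 genes rose, where 68.2% of all genes changed (37.2% rose and 30.9% fell), and Pfkm did not pass. Aldoc rose in WT CD8 cells, a call that the filter had fixed, and did not pass in SDHA-KO CD8 cells, and Adh7 rose in SDHA-KO CD4 cells, which the filter had fixed too. The median of all genes moved by 0.10 on stimulation in SDHA-KO CD8 cells, and changes of Hk1 at 0.30 and Ldhb at 0.47 there are read against it. These stimulation values depend on the scaling: without TMM the median log2 change of all genes was 0.30 and 0.26 in WT and SDHA-KO CD4 cells and 0.57 and 0.39 in CD8 cells, against 0.08, 0.03, 0.09, and 0.10 with it. The share of called genes that rose then went from 54.6% to 65.4%, from 52.4% to 62.8%, from 54% to 75.6%, and from 54.6% to 66.3%. Among the members that scaling ended the Ldhb call in WT CD4 cells, raised Pfkm past the threshold in SDHA-KO CD4 cells (0.59, adjusted p = 0.0474), and turned no direction.

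Hk1 encodes hexokinase 1, an isozyme that binds the outer mitochondrial membrane. In CD4 cells it was at 35.9 and 38.7 CPM in unstimulated WT and at 38.5 and 37.6 CPM in unstimulated SDHA-KO, and at 94.8 and 96.2 CPM in stimulated WT and 65.1 and 50.4 CPM in stimulated SDHA-KO. The genotypes overlapped before stimulation, and afterward both SDHA-KO libraries lay below both WT libraries and above every unstimulated one. The difference after stimulation was -0.73 on the log2 scale (SE 0.103, edgeR adjusted p = 0.000242), or 1.66-fold lower. In CD8 cells Hk1 was at 67.7 and 75.2 CPM in stimulated WT and at 45.4 and 39.3 CPM in stimulated SDHA-KO, a change of -0.75 (SE 0.0895, edgeR adjusted p = 4.85e-05). The unstimulated CD8 sums lay together, between 34.3 and 34.8 CPM in all 4 libraries. The rise on stimulation was smaller in SDHA-KO than in WT in both classes, with a difference of -0.76 on the log2 scale in CD4 cells (edgeR adjusted p = 0.00869) and -0.74 in CD8 cells (edgeR adjusted p = 0.00775). The CD4 value lost its call when the first unstimulated WT library was left out (-0.70, adjusted p = 0.0541).

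Measured as a share of all hexokinase UMIs in the class, Hk1 was not a minor isozyme before stimulation. It held 92.4% of the hexokinase UMIs in unstimulated WT CD4 cells and 86.7% in unstimulated WT CD8 cells, and the rest was mostly Hk2. After stimulation Hk2 rose from 2.92 to 181 CPM in WT CD4 cells and the Hk1 share fell to 34.2%. In stimulated SDHA-KO CD4 cells, where Hk2 was at 68.9 CPM, the Hk1 share was 45.4% and 45.5%, above the 33.9% and 34.5% of WT. In stimulated CD8 cells the shares overlapped, at 24.6% and 27.2% in WT and 23.4% and 25.6% in SDHA-KO. Hk2 itself differed by -1.39 between SDHA-KO and WT stimulated CD4 cells and by -0.62 in CD8 cells on the log2 scale.

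Pfkl and Pfkm encode the liver and muscle forms of phosphofructokinase, beside the platelet form Pfkp. Pfkl was at 80.1 and 79.6 CPM in stimulated WT CD4 cells and at 54.4 and 41.2 CPM in SDHA-KO, with unstimulated sums of 23.4 to 26.5 CPM in both genotypes. Both SDHA-KO libraries lay below WT after stimulation, and the log2 change was -0.74 (SE 0.112, edgeR adjusted p = 0.000353). In stimulated CD8 cells Pfkl was at 68.0 and 69.6 CPM in WT libraries and at 61.9 and 48.7 CPM in SDHA-KO. That difference of -0.31 (SE 0.105, edgeR adjusted p = 0.0287) was the smallest of the 8 and lost its call with DESeq2 (adjusted p = 0.0955), in the fit of the 4 libraries alone (adjusted p = 0.0723), without either stimulated WT library (adjusted p = 0.0821 and 0.103), and without the second stimulated SDHA-KO library (-0.17, adjusted p = 0.187). It was -0.47 (adjusted p = 0.00395) in strict CD8 cells, those with a UMI of Cd8a or Cd8b1 and none of Cd4 or Trdc. Pfkm, a low-count gene, was at 8.33 and 9.41 CPM in stimulated WT CD4 cells and at 6.44 and 4.27 CPM in SDHA-KO. Its call in CD4 cells (-0.73, SE 0.198, edgeR adjusted p = 0.0116) was lost with DESeq2 (adjusted p = 0.0605), without the second stimulated WT library (-0.63, adjusted p = 0.0899), and without the second stimulated SDHA-KO library (-0.45, adjusted p = 0.0838). In CD8 cells Pfkm was at 7.66 and 7.98 CPM in stimulated WT libraries and at 2.63 and 2.72 CPM in SDHA-KO, close to the unstimulated SDHA-KO sums of 2.998 and 2.37 CPM. The CD8 difference was -1.54 (SE 0.207, edgeR adjusted p = 0.000109), and the change of Pfkm on stimulation was 2.16 in WT CD8 cells and -0.00 (SE 0.331) in SDHA-KO CD8 cells.

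Within the phosphofructokinase family Pfkp held most UMIs. Pfkl held 19.6% of them in stimulated WT CD4 cells and 26.3% in stimulated SDHA-KO CD4 cells, and 19.2% and 27.7% in CD8 cells, with no overlap of libraries in either class. In unstimulated cells the Pfkl shares of the genotypes overlapped, with means of 33.9% and 34.1% in the CD4 class and of 26.3% and 28.3% in the CD8 class. Pfkm held 1.36% to 5.51% on average in all 8 groups by class.

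Aldoc encodes aldolase C, first described as the brain isozyme, beside the ubiquitous Aldoa. It was nearly absent from unstimulated cells, with 1.12 and 1.498 CPM in WT CD4 cells and 1.52 and 0.944 CPM in SDHA-KO CD4 cells. Stimulation brought it to 26.5 and 31.1 CPM in WT CD4 cells, 21.8-fold higher, but to 3.74 and 3.03 CPM in SDHA-KO CD4 cells. Both stimulated SDHA-KO libraries lay far below both WT libraries, with a log2 change of -3.09 (SE 0.155, edgeR adjusted p = 1.71e-07), or 8.53-fold lower, the largest of the 6 falls in CD4 cells. In CD8 cells stimulated WT libraries held 11.9 and 15.5 CPM and SDHA-KO libraries 1.32 and 0.743 CPM, from 28 and 12 UMIs. That change was -3.68 (SE 0.276), or 12.8-fold lower. Aldoc passed the filter in CD8 cells through stimulated WT alone, so this fall and the rise in WT CD8 cells were fixed and are description only. Unstimulated WT CD8 libraries held 0 and 2 Aldoc UMIs and stimulated ones 691 in all, a ratio of 76.5 per UMI sequenced (95% exact binomial interval for counting error 21.1 to 633). In SDHA-KO CD8 cells the ratio of stimulated to unstimulated was 1.46 (0.615 to 4.21, from 40 and 6 UMIs).

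Aldoc changed more than the abundant member of its family. Aldoa fell from 1250 CPM in stimulated WT CD4 cells to 727 CPM in SDHA-KO, a log2 change of -0.78. As a share of aldolase UMIs, Aldoc went from 2.25% in stimulated WT to 0.463% in stimulated SDHA-KO CD4 cells and from 1.39% to 0.128% in CD8 cells, and no libraries overlapped. Aldoc was at most 2.30% of the family in any library.

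Eno3 encodes beta-enolase, the isozyme known from muscle, beside the ubiquitous Eno1. In CD4 cells it was at 6.41 and 4.195 CPM in unstimulated WT and at 10.1 and 7.55 CPM in unstimulated SDHA-KO, and at 32.8 and 33.9 CPM in stimulated WT and 52.3 and 76.4 CPM in stimulated SDHA-KO. SDHA-KO libraries were above WT libraries in both states, and the difference passed after stimulation (0.95, SE 0.162, edgeR adjusted p = 0.000805, 1.93-fold higher) and not before it (0.73, SE 0.314, unadjusted p = 0.0396, edgeR adjusted p = 0.289). In stimulated CD8 cells Eno3 was at 37.6 and 39.5 CPM in WT libraries and at 46.6 and 68.6 CPM in SDHA-KO, a change of 0.57 (SE 0.15, edgeR adjusted p = 0.00811). This CD8 call was lost in cells with under 10% mitochondrial UMIs (0.13, adjusted p = 0.536), without the first stimulated WT library (0.52, adjusted p = 0.0649), and without the second stimulated SDHA-KO library (0.26, adjusted p = 0.0706). Stimulation raised Eno3 in WT by 2.66 and in SDHA-KO by 2.88 on the log2 scale in CD4 cells, and these rises did not differ beyond their error (0.22, SE 0.361, edgeR adjusted p = 0.72).

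Eno1 moved the opposite way, from 945 CPM in stimulated WT CD4 cells to 357 CPM in SDHA-KO (log2 change -1.40), and by -0.64 in CD8 cells. Eno3 therefore held 3.26% and 3.44% of enolase UMIs in stimulated WT CD4 libraries and 11.4% and 19.0% in SDHA-KO libraries. In CD8 cells its share went from 4.32% and 4.71% to 7.26% and 13.1%. Before stimulation the shares overlapped between genotypes in both classes. The row Eno1b, a near-identical copy of Eno1, was counted with the family, and reads of Eno1 and Eno1b cannot be fully separated.

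**Figure D3:**
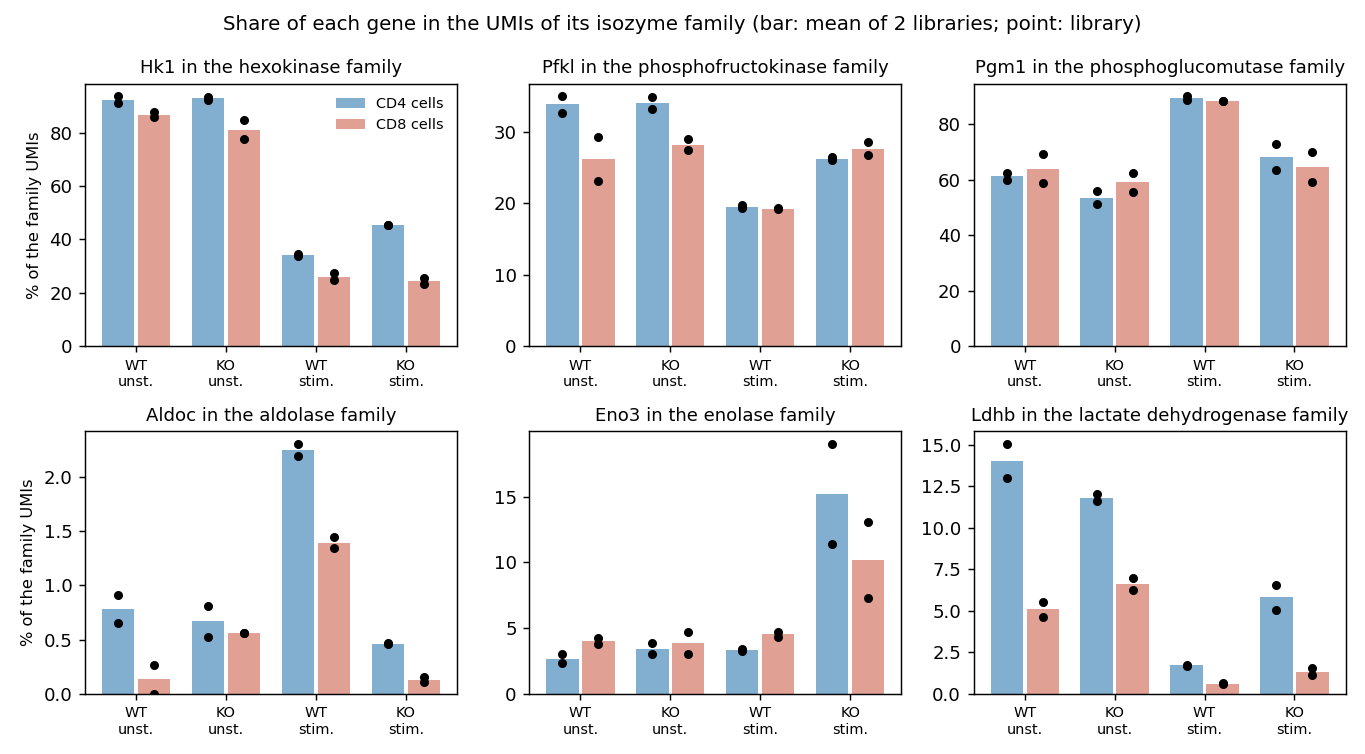
Share of each gene in the UMIs of its isozyme family (y axis: percent) by genotype and state (x axis), CD4 and CD8 cells; bars are means of 2 libraries and points libraries. Eno3 and Ldhb took larger shares in stimulated SDHA-KO than in stimulated WT cells, while Pgm1 and Aldoc took smaller ones.

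Ldhb encodes the lactate dehydrogenase subunit known to favour the conversion of lactate to pyruvate, beside Ldha. Like Adh1, it moved in opposite directions on stimulation in the genotypes of CD4 cells. In CD4 cells it was at 33.8 and 35.1 CPM in unstimulated WT and at 27.4 and 28.0 CPM in stimulated WT, but at 34.1 and 31.0 CPM in unstimulated SDHA-KO and at 64.1 and 77.9 CPM in stimulated SDHA-KO. The 2 stimulated SDHA-KO libraries were the highest of the 8, and the unstimulated genotypes overlapped. Ldhb rose by 1.13 on stimulation in SDHA-KO CD4 cells (SE 0.104, edgeR adjusted p = 1.94e-06) and fell by 0.32 in WT CD4 cells (SE 0.113, edgeR adjusted p = 0.0283), and the responses differed by 1.44 (SE 0.154, edgeR adjusted p = 0.000161). The small fall in WT did not hold without TMM scaling (-0.09, adjusted p = 0.473), in strict CD4 cells, those with a Cd4 UMI and none of Cd8a, Cd8b1, or Trdc (-0.14, adjusted p = 0.339), or in cells with under 10% mitochondrial UMIs, where its sign turned (0.10, adjusted p = 0.424), and it lost its call without any 1 of the 4 WT libraries. The difference between stimulated SDHA-KO and WT was 1.36 in CD4 cells (SE 0.0979, edgeR adjusted p = 2.54e-06) and 1.17 in CD8 cells (SE 0.13, edgeR adjusted p = 2.93e-05).

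CD8 cells held less Ldhb throughout. Their sums were 10.6 and 8.92 CPM in unstimulated WT, 14.4 and 12.7 CPM in unstimulated SDHA-KO, 8.31 and 8.37 CPM in stimulated WT, and 16.9 and 20.8 CPM in stimulated SDHA-KO. In strict CD8 cells, which leave out cells with a Trdc UMI, the stimulated difference between SDHA-KO and WT was 2.09 (edgeR adjusted p = 6.79e-08). Ldha was at 1587 CPM in stimulated WT CD4 cells and 1155 CPM in stimulated SDHA-KO CD4 cells, so Ldhb held 1.68% and 1.75% of lactate dehydrogenase UMIs in WT and 5.05% and 6.57% in SDHA-KO. In CD8 cells the shares were 0.567% and 0.644% in WT and 1.12% and 1.55% in SDHA-KO. In unstimulated WT cells Ldhb had held 14.0% in CD4 and 5.10% in CD8 cells.

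Pgm1 encodes phosphoglucomutase 1, which moves the phosphate between carbons of glucose phosphate. It was at 18.6 and 19.6 CPM in unstimulated WT and 14.6 and 14.7 CPM in unstimulated SDHA-KO CD4 cells, and at 84.7 and 87.2 CPM in stimulated WT and 34.1 and 21.1 CPM in stimulated SDHA-KO CD4 cells. SDHA-KO libraries were below WT libraries in both states, with a log2 change of -1.64 after stimulation (SE 0.162, edgeR adjusted p = 2.14e-05) and of -0.39 before it, which did not pass (SE 0.234, edgeR adjusted p = 0.459). The CD8 sums went the same way, with 62.1 and 71.2 CPM in stimulated WT and 26.7 and 17.0 CPM in stimulated SDHA-KO, a change of -1.60 (SE 0.162, edgeR adjusted p = 1.64e-05). Pgm1 was the larger part of the Pgm1 and Pgm2 UMIs in every library, so the description as a minor isozyme does not hold for it. After stimulation its share was 89.6% in WT and 68.1% in SDHA-KO CD4 cells, and 88.6% and 64.5% in CD8 cells, while Pgm2 changed by 0.31 in CD4 cells (edgeR adjusted p = 0.0739).

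Pck2 was the only phosphoenolpyruvate carboxykinase gene with a row in the table. In CD4 cells it was at 5.93 and 6.14 CPM in unstimulated WT, 2.82 and 4.44 CPM in unstimulated SDHA-KO, 33.7 and 30.5 CPM in stimulated WT, and 11.2 and 8.79 CPM in stimulated SDHA-KO. Both SDHA-KO libraries lay below both WT libraries in each state. After stimulation the difference was -1.69 (SE 0.143, edgeR adjusted p = 7.78e-06) in CD4 cells and -1.54 (SE 0.133, edgeR adjusted p = 6.05e-06) in CD8 cells, with CD8 sums of 27.5 and 24.4 CPM in WT and 9.78 and 7.92 CPM in SDHA-KO. Before stimulation it was -0.72 in CD4 cells (unadjusted p = 0.0184, edgeR adjusted p = 0.219) and -1.74 in CD8 cells (unadjusted p = 0.00699, edgeR adjusted p = 0.163), the latter from 24 UMIs in WT and 6 in SDHA-KO. Stimulation raised Pck2 in both genotypes, and in SDHA-KO CD8 cells the ratio was 12.3 (95% exact binomial interval for counting error 5.57 to 33.6).

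Adh1 and Adh7 are class I and class IV alcohol dehydrogenase genes, both known to handle retinol and ethanol, and both were rare. Adh1 in CD4 cells was counted 27 and 22 times in unstimulated WT, 18 and 24 times in unstimulated SDHA-KO, 15 and 28 times in stimulated WT, and 112 and 129 times in stimulated SDHA-KO. Scaled to depth these were 4.33 and 3.30, 1.95 and 2.26, 0.548 and 0.909, and 3.64 and 3.49 CPM. WT CD4 cells thus had less Adh1 per UMI after stimulation and SDHA-KO cells more, and the stimulated groups did not overlap. The changes were -2.36 in WT (SE 0.332, edgeR adjusted p = 6.98e-05), 0.75 in SDHA-KO (SE 0.292, edgeR adjusted p = 0.038), and 2.27 for SDHA-KO over WT after stimulation (SE 0.287, edgeR adjusted p = 0.000111). The rise in SDHA-KO lost its call with DESeq2 (adjusted p = 0.125), with libraries thinned to the smallest total (0.36, adjusted p = 0.484), and without any 1 of the 4 SDHA-KO libraries (0.68 to 0.89, adjusted p = 0.0759 to 0.136).

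Per UMI sequenced, Adh1 in stimulated SDHA-KO CD4 cells was 4.90 times that of WT (95% exact binomial interval for counting error 3.53 to 6.94, from 241 and 43 UMIs). Before stimulation the same ratio was 0.568 (0.367 to 0.875, from 42 and 49 UMIs), but the replicated test did not pass there (log2 change -0.84, unadjusted p = 0.0269, edgeR adjusted p = 0.253). Adh7 had no UMI in any of the 4 unstimulated CD4 sums, 1 UMI in stimulated WT, and 38 and 21 UMIs in the stimulated SDHA-KO libraries. The 0 of 1884 unstimulated WT cells allows a share of up to 0.159% of cells with a UMI, and 0 of 2431 in SDHA-KO allows up to 0.123%. Against a floor of 3 UMIs over the unstimulated group, Adh7 was at least 6.70-fold higher in stimulated SDHA-KO CD4 cells, and the ratio to stimulated WT was 51.5 (8.90 to 2069, from 59 and 1 UMIs). Adh4, another member of the family, was at 6.58 CPM in WT and 22.3 CPM in SDHA-KO CD4 cells after stimulation (log2 change 1.76, edgeR adjusted p = 0.00015), and Adh5 held most of the family's UMIs. Intervals and floors cover counting error alone. Adh7 passed the filter through stimulated SDHA-KO alone, so its ratios describe that group and are not independent evidence of a difference.

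These rare transcripts sat in few cells. The 1% of stimulated SDHA-KO CD4 cells with the most Adh7 held 96.1% ± 5.58 (SD, n = 2) of its UMIs, and the top 1% for Adh1 held 48.0% ± 6.55 (SD, n = 2). Of the 59 Adh7 UMIs, 53 were in cells annotated Tem, which were 1962 of the 2421 stimulated SDHA-KO CD4 cells. Per UMI, Adh7 was at 0.655 to 1.22 CPM in these Tem cells and at 0 to 2.98 CPM in those annotated Tcm, so no order is read. Adh1 was at 3.86 to 3.90 CPM in Tem cells of SDHA-KO and 0.541 to 1.11 CPM in those of WT (226 and 34 UMIs). In Tcm cells it was at 1.96 to 5.46 CPM and 0.536 to 0.737 CPM. The top 1% of stimulated CD4 cells held 11.4% of Aldoc UMIs in WT and 27.8% in SDHA-KO. For Hk1 they held 7.26% and 5.93%, and for Pfkl 6.27% and 6.66%. A gene with fewer UMIs has a larger share in its top cells by counting alone. No share expected from counting was computed, so no order between genes or genotypes is read from these values.

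The share of cells with at least 1 UMI went the same way as the sums in stimulated CD4 cells. For Aldoc it was 33.8% ± 2.90 (SD, n = 2) of cells in WT and 7.62% ± 0.538 (SD, n = 2) in SDHA-KO, and for Ldhb 36.4% and 62.9%. SDHA-KO cells held more UMIs each (medians of 23669 and 24652 per CD4 cell against 14753 and 14464 in WT), so cells were also thinned to 5000 UMIs, leaving out 38 WT and 160 SDHA-KO cells below that depth. Thinned shares in WT and SDHA-KO CD4 cells were 10.6% and 1.71% for Aldoc, 9.49% and 27.3% for Ldhb, 12.4% and 23.7% for Eno3, 32.7% and 12.9% for Pgm1, and 12.5% and 4.35% for Pck2. Hk1 went from 38.3% to 27.3% and Pfkl from 30.03% to 22.0% after thinning. In CD8 cells thinned shares were 5.38% and 1.07% for Aldoc, 2.75% and 8.38% for Ldhb, 11.2% and 20.8% for Eno3, 31.1% and 10.7% for Pgm1, and 12.6% and 4.81% for Pck2. For Pfkl in CD8 cells the unthinned shares of 61.3% in WT and 68.6% in SDHA-KO ran against the sums, and no order is read from them. No cell type known to lack these enzymes was in the table, so a background from free RNA could not be set for these shares. The CD8 class, in which Adh1 was seen in 0.06% to 0.448% of cells, gives a level for comparison with the 5.22% of stimulated SDHA-KO CD4 cells that held an Adh1 UMI.

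**Figure D4:**
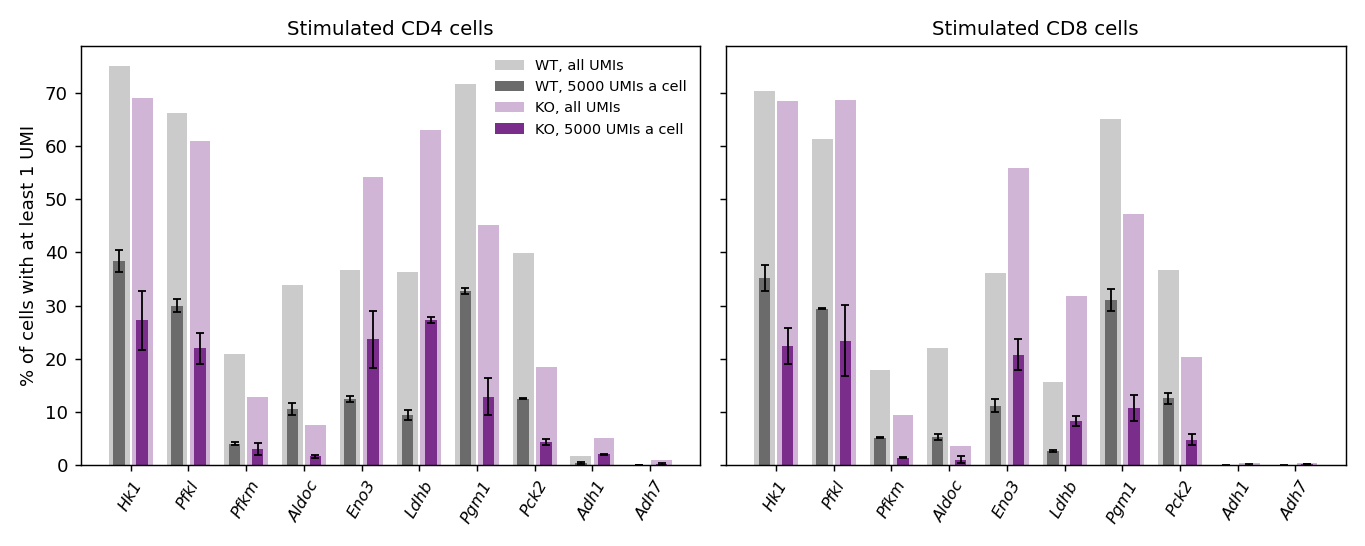
Percent of stimulated cells with at least 1 UMI (y axis) for each gene (x axis), WT and SDHA-KO, CD4 (left) and CD8 (right). Among CD4 cells Aldoc was seen in 33.8% of WT and 7.62% of SDHA-KO cells, and Ldhb in 36.4% and 62.9%.

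Before stimulation 0 of the 10 genes passed in CD4 cells and 0 of the 8 tested passed in CD8 cells in the edgeR test of SDHA-KO against WT, where 1.1% and 0.947% of all genes passed. At an unadjusted p of 0.05 there were 3 genes in CD4 cells (Eno3, Pck2, and Adh1) and 2 in CD8 cells (Ldhb at 0.49 and Pck2), where 16% and 14.1% of all genes were under it, and DESeq2 also called 0 in both classes. The lowest adjusted p in any of the 18 other settings, libraries left out included, was 0.0653 for Eno3 and 0.0659 for Pck2 in CD4 cells. In CD4 cells the libraries of the genotypes did not overlap for 4 of the 10 genes (Eno3 higher, and Pgm1, Pck2, and Adh1 lower in SDHA-KO), where 45.7% of all genes tested did not, a share near that of the members. In CD8 cells they did not overlap for 7 of the 8 tested (Pfkl, Pfkm, Aldoc, and Ldhb higher, and Hk1, Pgm1, and Pck2 lower), where 42.7% of all genes did not, and Aldoc and Pck2 rest there on 8 and 30 UMIs in all. Hk1 is counted there on a log2 change of only -0.01. In CD8 naive cells alone its SDHA-KO libraries lay above WT, at 29.8 to 33.6 CPM against 29.1 to 29.7 CPM. The 7 go in both directions, so no shift of the set is read from this count. A p that misses the threshold does not show that the genotypes were alike: the SE of these genes was 0.119 to 0.417 in CD4 cells, Adh7 aside.

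The test of whether the stimulation response differed between genotypes called 7 genes in CD4 cells, where 21.4% of all genes were called. Ldhb at 1.44 and Adh1 at 3.11 responded more upward in SDHA-KO, and Hk1, Pfkl, Aldoc (-2.98), Pgm1 (-1.26), and Pck2 (-0.97) less. In CD8 cells it called 3 genes, Hk1, Pfkm (-2.16, edgeR adjusted p = 0.00826), and Aldoc (-5.48, edgeR adjusted p = 0.00646), where 23.8% of all genes were called. Of the 7 genes other than Aldoc it called 2, a share near the background. The Aldoc value in CD8 cells rests on 2 and 6 unstimulated UMIs and lost its call without the second unstimulated SDHA-KO library (adjusted p = 0.0528). The CD4 count fell to 3 without the first unstimulated WT library, where Hk1, Pfkl (adjusted p = 0.0586), Pgm1 (-1.22, adjusted p = 0.0537), and Pck2 (adjusted p = 0.124) lost their calls, and to 4 without the second unstimulated SDHA-KO library. The CD8 count rose to 6 without the first stimulated SDHA-KO library.

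The authors' annotation puts stimulated cells into central memory (Tcm) and effector memory (Tem) subsets, and the mix differed between genotypes. Tem made up 37.1% to 38.6% of stimulated WT CD4 cells and 79.2% to 82.6% of SDHA-KO CD4 cells, and 23.2% to 28.9% against 56.0% to 58.6% of CD8 cells. SDHA-KO was therefore compared with WT inside each kind of cell, a comparison added after the data had been seen, with the 4 stimulated libraries alone. In CD4 Tem cells 9 of the 9 genes other than Adh7 passed in the same directions as in all CD4 cells (31.7% of 13530 genes did). In CD4 Tcm cells 6 of the 8 tested passed (25.1% of 11767 genes did), and Pfkm at -0.79 (edgeR adjusted p = 0.111) and Eno3 at 0.47 (edgeR adjusted p = 0.238) did not. Aldoc is among these 6. With 3 UMIs in SDHA-KO and 145 in WT Tcm cells it passed the filter through WT alone, so that call was fixed. In CD8 Tem cells 6 of the 7 genes other than Aldoc passed (33.4% of 12375 genes did), with Eno3 at 0.14 (edgeR adjusted p = 0.533) not among them, and in CD8 Tcm cells 5 of those 7 did (27.9% of 12051 genes), with Pfkl at -0.27 and Eno3 at 0.25 not among them.

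Aldoc showed how kind and genotype combined. In CD4 cells it was at 36.1 to 40.2 CPM in WT Tem and 8.40 to 11.8 CPM in WT Tcm, and at 3.43 to 4.36 CPM in SDHA-KO Tem and 0.497 to 0.980 CPM in SDHA-KO Tcm. The log2 change of SDHA-KO over WT was -3.50 in Tem (SE 0.14) and -3.93 in Tcm (SE 0.532). The Tcm value has 3 UMIs in SDHA-KO and 145 in WT behind it, and the filter had fixed its direction. Tem, the kind with more Aldoc, was the commoner one in SDHA-KO. In CD8 cells, where the change over the class was -3.68, it was -4.34 in Tem (SE 0.252, from 576 UMIs in WT and 31 in SDHA-KO) and -2.24 in Tcm (SE 0.394, from 115 and 9 UMIs). Ldhb was at 35.3 to 35.6 CPM in WT and 72.0 to 87.4 CPM in SDHA-KO CD4 Tem cells, and at 12.2 to 14.3 CPM in WT and 38.7 to 42.7 CPM in SDHA-KO CD4 Tcm cells. Its difference was 0.97 in Tem (SE 0.103, edgeR adjusted p = 0.000917) and 1.41 in Tcm (SE 0.165, edgeR adjusted p = 0.00062). Eno3 was at 42.0 to 42.2 CPM in WT and 59.96 to 85.7 CPM in SDHA-KO CD4 Tem cells, and at 17.8 to 18.0 CPM in WT and 18.9 to 38.2 CPM in SDHA-KO CD4 Tcm cells. Pgm1 differed by -1.75 in Tem and -1.69 in Tcm, and Hk1 by -0.83 and -0.50.

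**Figure D5:**
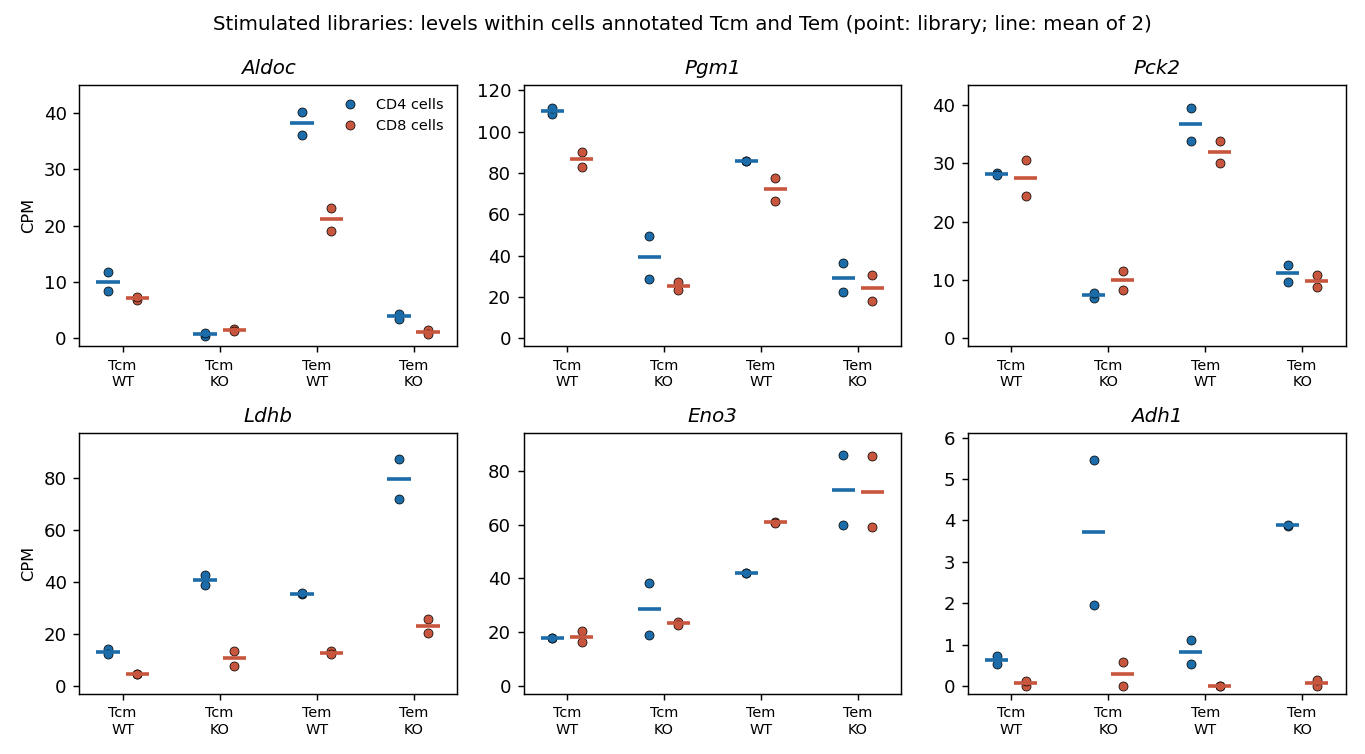
Levels in stimulated libraries (y axis: CPM) within cells annotated Tcm and Tem (x axis, with genotype), CD4 and CD8 cells; points are libraries and lines means of 2. In CD4 cells Aldoc was lower in SDHA-KO in both kinds, at 3.43 to 4.36 CPM in Tem against 36.1 to 40.2 CPM in WT, and Ldhb was higher in both.

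Single subsets with at least 20 cells in each of the 4 stimulated libraries numbered 8 in CD4 and 4 in CD8 cells, and no test was made in them. In the 4 CD8 subsets (Tcm2, Tcm3, Tcm4, and Tem2), 48.0% to 82.5% of SDHA-KO cells had a Trdc UMI, against 1.30% to 6.0% in WT. The part this plays in the CD8 subset counts was not tested. Aldoc, Pgm1, and Pck2 were lower in both SDHA-KO libraries than in both WT libraries in 8 of 8 CD4 subsets and in 4 of 4 CD8 subsets. Aldoc rested there on 0, 1, and 1 UMIs in SDHA-KO CD4 Tcm2, Tcm3, and Tcm4 cells, and on 0 in SDHA-KO CD8 Tcm2 cells. The share of all genes without overlap in single subsets was not computed, so the subset counts have no background beside them. The highest Aldoc level was in WT CD4 Tem1 cells, at 57.3 to 63.8 CPM against 2.99 to 3.18 CPM in SDHA-KO Tem1 cells. Hk1 was lower in 7 of 8 CD4 subsets and 4 of 4 CD8 subsets. Pfkl was lower in 5 of 8 CD4 subsets and in 1 of 4 CD8 subsets and overlapped in the others. Pfkm was lower in 3 of 8 CD4 subsets, overlapping in 5, and in 4 of 4 CD8 subsets. Ldhb was higher in 7 of 8 CD4 subsets and lower in CD4 Tem7, at 17.9 to 21.9 CPM against 29.8 to 34.8 CPM in WT. Eno3 was higher in 5 of 8 CD4 subsets and overlapped in 3, and in CD8 cells it was higher in 1 subset, lower in 1, and overlapping in 2.

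In the CD8 class Ldhb was uneven over the subsets, and so was Trdc. In SDHA-KO Tem2 cells, of which 80.0% to 82.5% had a Trdc UMI, Ldhb was at 7.36 to 8.40 CPM, below the 13.2 to 13.5 CPM of WT Tem2 cells. In SDHA-KO Tem1 cells, with Trdc in 39.0% to 42.3%, it was at 24.2 to 37.1 CPM. In SDHA-KO Tem6 cells, with Trdc in 6.82% to 16.3%, it was at 45.2 to 57.9 CPM. Tem1 and Tem6 had fewer than 20 cells in each WT library and give no comparison with WT. Trdc was found in 0% to 7.89% of cells of the WT CD8 subsets.

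WT CD8 cells differed from WT CD4 cells of the same libraries for several of the genes. Before stimulation 4 of the 8 genes tested were lower in CD8 cells, where 22.3% of 11259 genes differed (10.8% lower and 11.5% higher): Ldhb at -1.81 on the log2 scale (SE 0.156, edgeR adjusted p = 7.26e-11), Adh1, Pck2 at -0.98, and Pfkl at -0.43. Adh1 passed the filter through CD4 sums alone, so its call was fixed and is not evidence of a class difference. Without TMM 21.7% rather than 51.5% of the called genes were higher in CD8 cells, with a median of -0.16 over all genes, and Pfkm (-1.22, adjusted p = 0.0428) passed as well. With DESeq2 Ldhb alone passed, and without the second unstimulated WT library the count was also 1. After stimulation 6 of the 10 genes were lower in CD8 cells and Eno3 was higher, where 23.5% of 14617 genes differed (12.5% lower and 11% higher). The log2 differences were -1.67 for Ldhb (SE 0.0697, edgeR adjusted p = 6.23e-06), -1.02 for Aldoc (SE 0.0868, edgeR adjusted p = 0.00019), -0.36 for Hk1, -0.31 for Pgm1, -0.25 for Pck2, and 0.27 for Eno3 (edgeR adjusted p = 0.0107). Without TMM 63.7% rather than 46.9% of the called genes were higher in CD8 cells, and Pck2 lost its call (-0.19, adjusted p = 0.0623). Without the first stimulated WT library 3 genes passed. Adh1 was the sixth lower gene, and here too it was tested through CD4 sums alone, so that call was fixed. As a description, per UMI sequenced WT CD4 cells had 11.1 times the Adh1 of CD8 cells before stimulation (95% exact binomial interval for counting error 3.59 to 55.8, from 49 and 3 UMIs) and 34.2 times after it (5.82 to 1381, from 43 and 1 UMIs).

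Whether the SDHA-KO difference itself depended on the class was tested within the same libraries. Before stimulation 0 of 8 genes passed in edgeR, where 0.551% of all genes did, and 1 gene, Ldhb (0.61), was under an unadjusted p of 0.05, where 8.61% of all genes were. After stimulation 3 of 10 passed, where 22.4% of all genes did: Pfkl (0.41, SE 0.0715, edgeR adjusted p = 0.00593) fell less in CD8 than in CD4 cells, Pfkm (-0.83, SE 0.231, edgeR adjusted p = 0.0366) fell more, and Eno3 (-0.38, SE 0.0753, edgeR adjusted p = 0.0098) rose less. In strict cells of both classes these 3 calls were lost (adjusted p = 0.0889, 0.138, and 0.128), and Ldhb, at -0.20 and not called in all cells, turned to 0.78 (edgeR adjusted p = 0.00439). With DESeq2 1 gene passed, and without either stimulated WT library 1 did.

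The same comparison was made for 11 genes of the main glycolytic route (Hk2, Gpi1, Pfkp, Aldoa, Tpi1, Gapdh, Pgk1, Pgam1, Eno1, Pkm, and Ldha). In stimulated SDHA-KO against WT cells 11 of 11 were lower in CD4 cells, with a median of -0.78, where 20.5% of all genes were lower. In CD8 cells 9 of 11 were lower, with a median of -0.34, where 23.5% of all genes were. Stimulation raised 11 of 11 in each genotype and class, where 35.5% to 37.2% of all genes rose. Ldha changed by -0.46 in CD4 cells (edgeR adjusted p = 0.00111) and by 0.03 in CD8 cells (SE 0.081, edgeR adjusted p = 0.749). A list of 26 further genes of these enzyme families had 23 in the table and 14 tested, of which 3 were higher and 3 lower in stimulated SDHA-KO CD4 cells and 5 higher and 3 lower in CD8 cells. Of all genes 43.2% were called in CD4 cells and 50.4% in CD8 cells, so the counts for this list are near the background. In stimulated CD4 cells none of the 11 main-route genes was called higher in SDHA-KO, where Eno3 and Ldhb were.

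For the 5 members that averaged 20 CPM or more, the genes whose pattern over the 16 library-by-class sums was most like theirs were sought among 5728 genes that averaged 20 CPM or more, by Pearson's r of log2(CPM + 1). The 16 sums share libraries in pairs, so r is a description. For Pfkl these were Zfp609 (r = 0.991), Pkm (0.988), and Slc16a3 (0.983). For Eno3 they were Ndufb9 (0.989), Snrpa1 (0.988), and Siva1 (0.986). For Pgm1 they were Hjurp (0.963), Slc2a3 (0.961), and Hk1 (0.960), and for Hk1 they were Spidr (0.967), Lockd (0.964), and Grhpr (0.964). Of these 5, Ldhb had the lowest r with its best match. Its matches were Lcp2 (0.945), Smco4 (0.931), and B3gnt2 (0.928), and its r with Hk1 was 0.107.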

How the data were processed

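Per the labels, T cells were profiled with 10x Genomics 3′ HT v3.1 chemistry, and the submitters' processing notes name Cell Ranger, bcl2fastq, and mm10 without versions. According to the methods, the 8 libraries were joined in Seurat, and the authors dropped cells with too many detected genes as well as clusters that lacked Cd3 transcripts. The authors deposited raw UMI counts per gene and cell, not normalized, with a cell table that holds the library, the class (CD4 or CD8), the subset, UMI and gene counts, the percent of UMIs on 13 mitochondrial genes, and a log10 ratio of Cd4 to Cd8a that the authors computed from the same counts. UMI totals, gene numbers, and percentages were checked against the matrix, and 0 cells differed in totals. The log10 values were not used. How doublets were treated is not given in the sources used here beyond the limit on genes, and no doublet caller was run here.

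UMIs were summed per library and class, since cells are not replicates. Sums were tested with edgeR 4.0.16 (R 4.3.3) by its quasi-likelihood test with TMM scaling, filterByExpr (minimum count 10, minimum total 15), all 8 libraries in 1 fit per class, and Benjamini-Hochberg adjustment over all genes tested, at 0.05. Class comparisons used the 4 libraries of a state with the library as a block. The spread between replicates was 8.73% in CD4 and 8.24% in CD8 cells. SEs are the log2 fold change over the square root of F. Levels are TMM-scaled CPM, and levels in kinds and subsets are CPM of that cell set's own UMIs. Fits were tested on simulated data first. Alternatives were DESeq2 1.42.0, limma 3.58.1 on mean log values per cell, no TMM, other count filters, nuclear genes, strict class cells, cells under 10% mitochondrial UMIs, thinned libraries, the 4 libraries compared alone, a replicate block, and each library left out. Intervals are 95% exact binomial ones for ratios of UMI counts, and 0 UMIs are read as up to 3. Shares were computed in Python 3.11.15 with numpy 2.4.6, pandas 2.3.3, and scipy 1.17.1. All 10 genes are named whatever their values, and matplotlib 3.10.9 drew the plots. The members, gene lists, and tests were chosen with earlier results of these data known.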

Additional observations from a re-analysis of the deposited data

Results flagged for a closer look

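Under the same contrast 13 values differed between groups, each from a test of the difference itself and each with an adjusted p under 0.05 in edgeR's quasi-likelihood test. Groups of 2 libraries are too small for a check of outlying samples.

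In CD4 cells the log2 response to stimulation differed between genotypes for 7 genes, where 21.4% of all genes were called. SDHA-KO minus WT, the difference was -0.76 for Hk1, -0.82 for Pfkl, -2.98 for Aldoc, 1.44 for Ldhb, -1.26 for Pgm1, -0.97 for Pck2, and 3.11 for Adh1. Ldhb and Adh1 fell on stimulation in WT cells and rose in SDHA-KO cells, although the Ldhb fall in WT turned to 0.10 in cells under 10% mitochondrial UMIs. The Adh1 rise in SDHA-KO lost its call with DESeq2 and in libraries thinned to the smallest total. The other 5 rose in both genotypes and by less in SDHA-KO.

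In CD8 cells the same difference passed for Hk1 at -0.74, Pfkm at -2.16, and Aldoc at -5.48, or 3 of the 8 tested, where 23.8% of all genes were called. Aldoc was tested only because stimulated WT was high, and 2 of the other 7 genes is a share near that background. The Aldoc value has 2 UMIs in unstimulated WT and 6 in unstimulated SDHA-KO behind it.

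The log2 change of stimulated SDHA-KO over WT differed between CD8 and CD4 cells for Pfkl at 0.41, Pfkm at -0.83, and Eno3 at -0.38, or 3 of 10, where 22.4% of all genes were called, a share near the members'. In the stimulated SDHA-KO CD8 class 56.1% and 59.1% of cells held a Trdc UMI, and in strict cells of both classes 0 of these 3 values passed.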

How the results depend on the processing

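Of 2040 log2 fold changes of members recomputed under the alternatives, 1914 kept direction and side of the threshold, 98 lost a call, 25 gained one, and 3 changed sign. The sign changes were Ldhb on stimulation in WT CD4 cells in cells under 10% mitochondrial UMIs (0.10), the Pck2 genotype difference of the stimulation response in CD8 cells with limma (-0.10), and the Ldhb class difference of the genotype effect in stimulated strict cells (0.78).

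Shares, which have no test, moved more often. By over 1 SD between replicates moved 140 of 160 shares of cells with a UMI when cells were thinned, 62 of 76 shares of UMIs in the top 1% of cells when the top 5% was taken, and 31 of 160 isozyme shares in strict cells or cells under 10% mitochondrial UMIs. The first 2 settings change the depth or the cells counted by construction.

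Counts of members that moved by over 1.5 times were these, Adh7 in CD4 cells and Aldoc in CD8 cells included. The genotype difference of the response in CD8 cells called 3, but 5 without TMM, 5 in strict cells, and 6 with limma. CD8 against CD4 in unstimulated WT called 4, Adh1 included, but 1 with DESeq2 and 2 in strict cells. The class difference of the stimulated genotype effect called 3, but 1 with DESeq2 and 1 in strict cells. Stimulated SDHA-KO against WT called 10 in CD4 cells and 6 in Tcm cells alone, where 8 were tested and the filter had fixed the Aldoc call.

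Leaving out 1 library at a time gave 9 to 10 calls for stimulated SDHA-KO against WT in CD4 cells and 6 to 8 in CD8 cells, 0 to 0 for both classes unstimulated, 8 to 9 and 7 to 9 for stimulation in WT and SDHA-KO CD4 cells, 7 to 7 and 3 to 6 in CD8 cells, 3 to 8 and 2 to 6 for the genotype difference of the response in CD4 and CD8 cells, 1 to 4 and 3 to 8 for CD8 against CD4 unstimulated and stimulated, and 0 to 0 and 1 to 3 for the class difference of the genotype effect. The 3 in SDHA-KO CD8 cells came without either unstimulated SDHA-KO library.

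Genes called over the whole table moved by over 1.5 times as follows. Unstimulated SDHA-KO against WT in CD4 cells called 157, and 281 with DESeq2, 643 without the count filter, 239 in thinned libraries, 82 with limma, 445 in the 4 libraries alone, and 18 to 263 with a library left out. In CD8 cells it called 124, and 264 with DESeq2, 225 without the filter, 219 in strict cells, 307 thinned, 338 in the 4 libraries alone, and 10 to 172 with a library left out. Stimulated, it called 6160 in CD4 cells, 4020 without the first stimulated WT library, and 2956 in Tcm cells alone, and 6594 in CD8 cells, 4128 in Tem cells alone, and 3358 in Tcm cells alone. The response difference called 3053 in CD4 cells, 1951 in cells under 10% mitochondrial UMIs, 5883 with limma, and as few as 1722 with a library left out (without the second unstimulated WT library), and 3111 in CD8 cells, 1397 in cells under 10% mitochondrial UMIs, and as few as 1848 without that same library. CD8 against CD4 called 2511 unstimulated and 3440 stimulated, with DESeq2 730 and 1584, and 1343 and 1468 without the second unstimulated and the first stimulated WT library. The class difference of the genotype effect called 62 unstimulated (157 without the filter, 128 in strict cells, 184 without the second unstimulated SDHA-KO library) and 3270 stimulated (1505 with DESeq2, 1430 in strict cells, 1727 without the first stimulated WT library). Without TMM the share of called genes that were higher went from 29.8% to 73% for unstimulated SDHA-KO against WT in CD8 cells, from 56.9% to 32.7% for the response difference in CD8 cells, and from 53.2% to 71.9% and 53.3% to 39.5% for the class difference unstimulated and stimulated. With DESeq2 the unstimulated class difference was at 11.1%.

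With the replicate block 89 member values were as before and 1 lost its call, Hk1 on stimulation in SDHA-KO CD8 cells (0.30, adjusted p = 0.0504). Correlations of same-numbered libraries ran from -0.19 to 0.08 over 12 pairs of groups, so no shift shared by same-numbered libraries was seen. With 2 libraries a group this cannot show whether the numbers pair the libraries, and the labels do not say. In SDHA-KO CD8 cells Ldhb on stimulation also lost its call with DESeq2 (adjusted p = 0.0819) and thinned (adjusted p = 0.0849). Where a cause of these moves is not given by the setting itself, the cause was not tested. In CD8 cells depth left Adh1 and Adh7, with 10 UMIs each, untested.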

Other observations

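In unstimulated CD4 cells Eno3 was uneven over the annotated kinds. In regulatory T cells it was at 11.3 to 24.7 CPM in WT (22 UMIs) and 40.8 to 57.3 CPM in SDHA-KO (70 UMIs), and in naive cells at 3.63 to 4.38 CPM and 4.94 to 5.26 CPM. Ldhb in unstimulated Tem cells was at 21.7 to 34.8 CPM in WT (38 UMIs) and 1.27 to 14.2 CPM in SDHA-KO (14 UMIs), whereas in regulatory T cells it was at 49.1 to 55.7 CPM and 35.5 to 38.2 CPM. Of the unstimulated CD4 Tem cells, 46.3% and 41.8% in SDHA-KO libraries had a Trdc UMI, against 1.16% and 0% in WT. The Tem cells of the genotypes were therefore not alike, and the part this plays in the Ldhb values was not tested. These values were picked after they had been seen, were not tested, and rest on few cells. Naive cells made up 80.9% to 83.8% of unstimulated WT CD4 cells and 86.5% to 87.5% of SDHA-KO ones.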
